A study of Rattus norvegicus with 12 samples.

Results

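The effect of 3-methylcholanthrene (3-MC) on the rat uterus was measured as 1 average over animals that did or did not also receive 17β-estradiol (E2). All 12 animals were female Lewis rats, young adults whose ovaries had been removed, so the main ovarian source of estrogen was absent in every group. They were dosed for 3 days with the solvent DMSO (vehicle), with E2 at 4 µg/kg per day, with 3-MC at 15 mg/kg per day, or with E2 and 3-MC together (E2+3-MC). Uteri were taken 24 hours after the last dose. With 3 rats to a group and 1 Affymetrix array to a rat, the study comprised 4 groups and 12 arrays. The 3-MC and E2+3-MC groups made up the 6 rats with 3-MC, out of 12 in all, and the vehicle and E2 groups the 6 rats without. Every one of the 15310 probe sets with a single gene symbol was tested, and the presence of estradiol entered the model as a covariate.

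3-MC is a polycyclic aromatic hydrocarbon and a ligand of the aryl hydrocarbon receptor (AhR). The receptor sits in the cytoplasm with chaperones, moves to the nucleus when a ligand binds, pairs with its partner ARNT and binds DNA at the core motif GCGTG. Its best known targets are the cytochrome P450 genes Cyp1a1, Cyp1a2 and Cyp1b1 and its own repressor, Ahrr. In the uterus, AhR ligands are known as antagonists of several estrogen responses, while estradiol itself drives growth of the epithelium and of the stroma beneath it.

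A level below is the quantile-normalized log2(intensity + 16) of a probe set on 1 array, and a difference is the mean with 3-MC minus the mean without, adjusted for estradiol, given ± its standard error (SE) from limma. The offset of 16 shrinks the differences of dim probe sets. A probe set is named dim if its mean level over all arrays was under 6.466, the lowest 30%. Whether rats overlapped is stated for these levels and can differ on the deposited intensities. "Called" means a Benjamini-Hochberg adjusted p under 0.05 over all 15310 probe sets. Deposited array medians were 104.2 to 123.6 in the rats with 3-MC and 86.3 to 111.4 in those without, lowest in E2 rats 2 and 3. Vehicle rat 1 had the widest spread of values, with an interquartile range of 2.70 against 1.87 to 2.35 on the log2 scale. Genes that define the tissue were well above the dim range in all rats: the homeobox gene Hoxa11 lay between 8.59 and 9.64, the estrogen receptor gene Esr1 between 10.44 and 11.55, the smooth muscle actin gene Actg2 between 11.63 and 12.87, and the epithelial keratin gene Krt8 between 8.40 and 11.44.

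Over the 12 rats, no gene passed the test for a 3-MC effect. The gene closest to one was Postn, which encodes the matricellular protein periostin of the connective tissue and was 0.96 ± 0.15 higher with 3-MC, or 1.95-fold. Genes of cholesterol synthesis and markers of epithelium lay below 0 nearly throughout. The classic AhR targets Cyp1a1, Cyp1a2, Cyp1b1 and Ahrr differed little, but all were dim, where the offset shrinks differences and a rise may not be seen. The limma main effect called 0 of 15310 probe sets (0%), and the smallest adjusted p was 0.193, that of Postn. At an unadjusted p under 0.05 the same test held 1665 probe sets, 10.9% of those tested, of which 598 were higher with 3-MC (3.91%) and 1067 lower (6.97%). The balance between these directions depended on the scale of the arrays: 35.9% of them were higher after quantile normalization, 95.9% on the deposited scale and 13.7% after centring each array on its median. The median difference of all probe sets was -0.015 on the first scale, 0.088 on the second and -0.075 on the third. At the unadjusted threshold 1553 were higher and 67 lower on the deposited scale, and 214 and 1350 after median centring. Leaving out 1 rat at a time gave 409 to 843 higher and 686 to 1459 lower. Counts of gene lists on those scales or without 1 rat are to be read beside these.

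Differences were small throughout. The median size of a difference was 0.0904 and the median SE was 0.0956, so a typical gene differed by less than its error. Only 40 probe sets differed by more than 1.5-fold in either direction and 2 by more than 2-fold. The range ran from -1.53 for the pseudogene Slpi-ps1 to 0.96 for Postn. By comparison, the median size of the estradiol effect in the same model was 0.176, and it was larger than the 3-MC effect for 71.9% of probe sets. In 95 probe sets (0.621%) all 3 rats with 3-MC lay above all 3 without it, both in the absence and in the presence of estradiol, and in 108 (0.705%) all lay below.

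**Figure D1:**
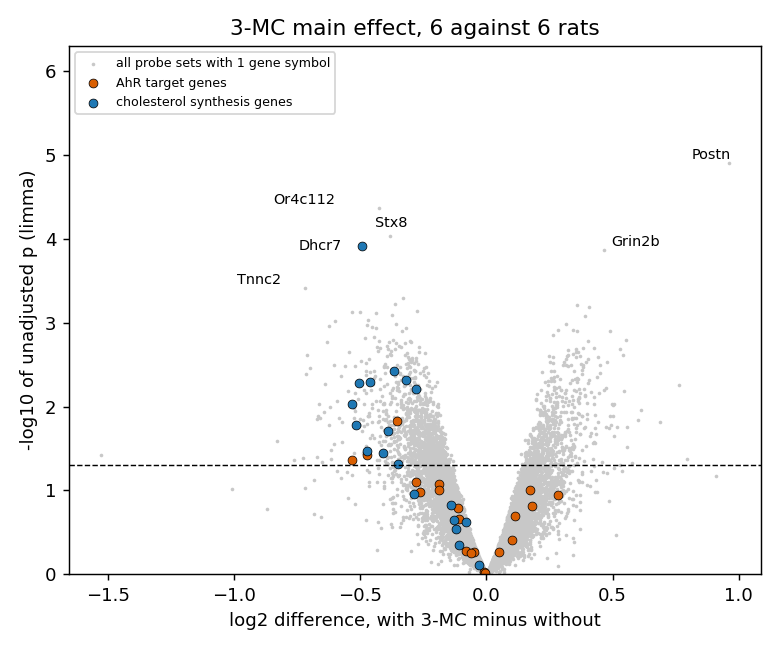
Each point is 1 of 15310 probe sets, with its log2 difference (3-MC minus no 3-MC) on the horizontal axis and the negative log10 of its unadjusted limma p on the vertical axis; the dashed line marks p of 0.05. Postn stands highest on the right at 0.96, the cholesterol synthesis genes (blue) all lie left of 0, and the AhR target genes (orange) spread over both sides.

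Postn was higher with 3-MC in both estradiol backgrounds. Its levels were 10.36, 10.67 and 10.57 with vehicle and 10.89, 11.06 and 11.38 with 3-MC. With estradiol they were 8.75, 8.73 and 8.65, and with E2+3-MC 9.81, 10.37 and 10.01. On this scale all 3 rats with 3-MC thus lay above all 3 without it in each background. Levels were lower on average in the rats given estradiol. In deposited intensity, vehicle rat 1 at 1914 lay above 3-MC rats 1 and 2, at 1594 and 1578, and the groups with estradiol did not overlap. The difference was 0.58 ± 0.15 without estradiol, which was not called (adjusted p = 0.901 in limma). It was 1.35 ± 0.15 with estradiol, where Postn was called (adjusted p = 0.0117). The 2 effects differed by 0.77 ± 0.22, a difference that the limma interaction test did not call (adjusted p = 0.876). With 1 mean per group in place of the additive model, Postn was the 1 probe set called in the main effect, at an adjusted p of 0.0104.

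The other 11 of the 12 probe sets with the smallest p in the higher direction had differences between 0.26 and 0.55 and adjusted p of 0.412, none of them called. Itgbl1, which encodes a secreted integrin beta-like protein, had levels of 8.75, 8.68 and 8.58 with vehicle and 8.96, 8.85 and 8.83 with 3-MC. Its levels were 8.37, 8.09 and 8.02 with E2 and 8.88, 8.76 and 8.66 with E2+3-MC. The rats with 3-MC were above the others in each background, by 0.21 ± 0.11 without estradiol and 0.60 ± 0.11 with it. Grin2b, a subunit of the NMDA glutamate receptor, differed by 0.47 ± 0.09, but all its levels, 5.24 to 6.13, were in the dim range. Coq10a, a coenzyme Q binding protein of mitochondria, differed by 0.36 ± 0.08 and the cytochrome c oxidase assembly factor gene Cox20 by 0.36 ± 0.09. Slc4a4, a sodium bicarbonate cotransporter gene, differed by 0.39 ± 0.09, with overlap of 3-MC and vehicle rats. Dock6, a guanine nucleotide exchange factor gene, differed by 0.26 ± 0.07. Bbs5, part of the BBSome complex of primary cilia, differed by 0.55 ± 0.14 and by nearly the same amount in both backgrounds, 0.55 without and 0.55 with estradiol. Its vehicle and 3-MC rats overlapped. Enpp7, an alkaline sphingomyelinase gene, was dim and differed by 0.49 ± 0.12. The others were Zfp534l1, Rhox8 and Ly49s4, at 0.32, 0.28 and 0.34, of which Rhox8 and Ly49s4 were dim. Ly49s4 belongs to a gene family of close copies, so its probe set may read more than 1 of them.

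On the lower side, the 12 probe sets with the smallest p had differences between -0.27 and -0.72, with adjusted p of 0.328 to 0.412. Tnnc2, which encodes the troponin C of fast skeletal muscle, had levels of 10.18, 10.35 and 10.25 with vehicle and 9.73, 10.08 and 9.40 with 3-MC. Its levels were 9.28, 9.76 and 9.91 with E2 and 8.95, 8.28 and 8.98 with both compounds. No rat with 3-MC reached a rat without it in the same background, and the difference was -0.72 ± 0.16. Of 17 skeletal muscle markers measured, 3 were lower (17.6%) and 1 higher (5.88%) at an unadjusted p under 0.05, with a median of -0.05. Among all probe sets 6.97% were lower and 3.91% higher. Beside Tnnc2 the lower ones were the actin gene Acta1 at -0.32 and the myosin gene Myh2 at -0.21, and the higher one was the slow troponin I gene Tnni1 at 0.33; Myh2 and Tnni1 are dim. The other 13 missed that threshold and ranged from -0.24 to 0.31. On the deposited scale the counts were 1 lower and 3 higher, and without E2 rat 2, E2 rat 3 or E2+3-MC rat 2 the lower count was 1. All probe sets had 67 lower and 1553 higher on the deposited scale, and 768, 686 and 785 lower without those rats. Over the list 9 members were dim, the list mean stayed between 6.78 and 7.05 in every rat, and summed intensities were 2767 to 3736 in the rats with vehicle, 3-MC or E2+3-MC and 3811 to 4484 with E2. The part of muscle tissue in the Tnnc2 values was not tested.

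Stx8, a SNARE protein gene of endosomal membrane fusion, had levels of 8.21, 8.12 and 8.45 with vehicle, 7.86, 7.98 and 7.89 with 3-MC, 8.66, 8.72 and 8.74 with E2, and 8.31, 8.22 and 8.35 with E2+3-MC. Its difference was -0.38 ± 0.07, with -0.35 without and -0.41 with estradiol, and groups did not overlap in either background. Its 2 other probe sets differed by -0.23 and -0.18. Vps37b, a component of the ESCRT-I sorting complex, differed by -0.36 ± 0.08. Lypd3, a surface glycoprotein gene of squamous and other epithelia, differed by -0.50 ± 0.12, and Avpi1, named for its induction by vasopressin, by -0.53 ± 0.12. Avpi1 showed -0.26 ± 0.15 without estradiol, where rats overlapped, and -0.81 ± 0.15 with it. The limma interaction test did not call this difference (adjusted p = 0.876). Tubb3, a beta-tubulin gene best known from neurons, differed by -0.37 ± 0.09. Hist1h2an, a histone H2A gene, differed by -0.33 ± 0.07, and its other probe set by -0.25 ± 0.20. Histone genes are near copies of each other, as are the olfactory receptor genes Or4c112, Or5k16 and Or51f1g at -0.43, -0.44 and -0.47, all 3 dim, so these 4 may share signal with their relatives. Esrp1, a splicing factor of epithelial cells, and Dhcr7, a sterol reductase, are described with their lists.

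**Figure D2:**
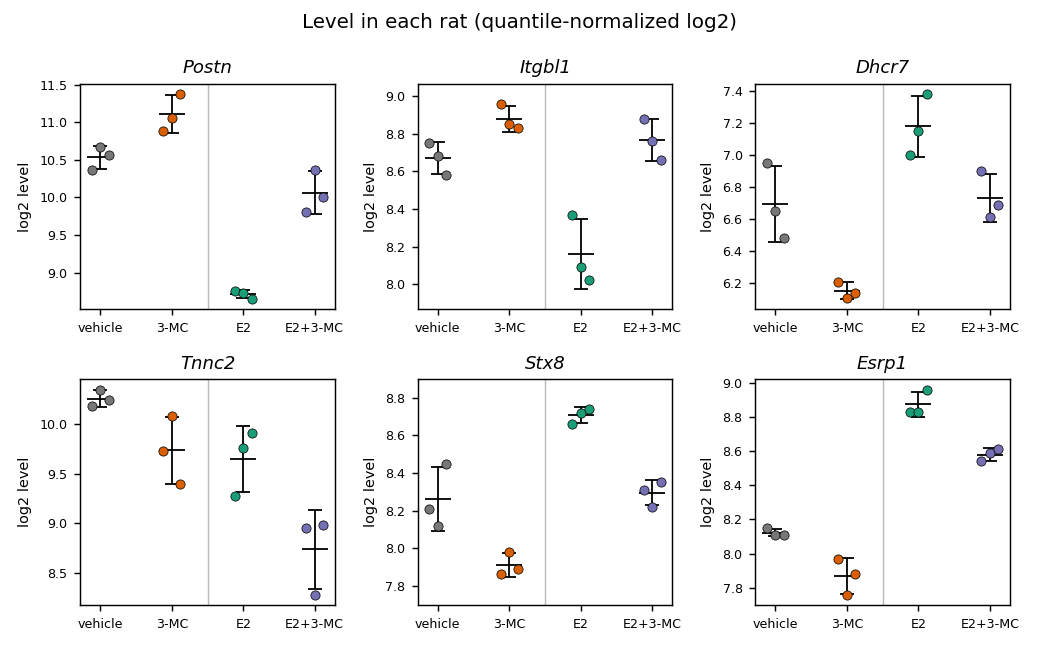
Points are log2 levels of single rats, with the 4 groups on the horizontal axis and a scale of its own on each vertical axis; horizontal bars are means and error bars SD of 3 rats. The grey line separates rats without and with estradiol. In each of the 6 genes, on either side of it, the 3 rats with 3-MC do not overlap the 3 without it. On the deposited intensities Postn, Itgbl1, Dhcr7 and Esrp1 overlap without estradiol, and Dhcr7 and Esrp1 also with it.

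The AhR target genes, several of which AhR ligands raise in liver, were not called in either direction. Of 24 genes listed, 20 had a probe set, 10 of them dim; at an unadjusted p under 0.05, 0 were higher and 3 lower, where 3.91% of all probe sets were higher and 6.97% lower. Leaving out 1 rat at a time gave 0 to 2 higher and 1 to 5 lower. The lower count was 1 without E2 rat 2, E2 rat 3 or E2+3-MC rat 1 and 5 without 3-MC rat 2. Over all probe sets the lower count was 768, 686, 765 and 899 in these fits, against 1067 with all 12 rats. The median difference of the list was -0.07, beside -0.015 over all probe sets; it was 0.10 on the deposited scale, where all probe sets had 0.088. On that scale the list had 3 higher and 0 lower, with 13 of 20 above 0. Of all 15310 probe sets, 1553 were higher and 67 lower there. Cyp1a1, the monooxygenase used most often as a marker of AhR activation, had levels of 5.71, 5.32 and 4.95 with vehicle, 5.25, 5.07 and 5.53 with 3-MC, 5.10, 5.41 and 5.36 with E2, and 5.10, 5.26 and 5.61 with E2+3-MC. All 4 groups overlapped. Its deposited intensities were 15.3 to 32.4 over all 12 arrays, and its difference was -0.01 ± 0.13, with a 95% interval from -0.285 to 0.274 (adjusted p = 0.992 in limma). At this brightness a rise that stayed within the dim range may not be seen, and the interval applies to the log2(intensity + 16) scale only.

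Cyp1a2, its close relative in liver, differed by -0.05 ± 0.07, with levels of 5.65 to 5.99 in all rats. Cyp1b1, which hydroxylates estradiol and polycyclic hydrocarbons, differed by -0.11 ± 0.09 and was dim; its sign turned to 0.07 on the deposited scale. Ahrr, the repressor that AhR induces against itself, was dim and had levels of 6.26, 6.26 and 6.25 with vehicle and 6.09, 6.27 and 6.10 with 3-MC. With estradiol it had 5.66, 5.51 and 5.55, and with E2+3-MC 5.85, 5.94 and 5.90. Deposited intensities were 53.86, 66.38 and 57.75 with vehicle and 64.02, 63.74 and 56.87 with 3-MC. They were 31.8, 24.05 and 23.22 with E2 and 46.13, 51.25 and 43.57 with E2+3-MC. Rats given both compounds thus lay above those given E2 alone, by 0.33 ± 0.09 (adjusted p = 0.265), while 3-MC and vehicle rats overlapped at -0.10 ± 0.09. The main effect averaged these to 0.11 ± 0.09 (adjusted p = 0.623), and the difference between them was not called (adjusted p = 0.876 in the interaction test). Aldh3a1, an aldehyde dehydrogenase gene of the AhR battery, showed 0.00 without and 0.36 with estradiol, and 0.18 ± 0.12 over both.

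Nqo1, a quinone reductase gene that both AhR and NRF2 are known to induce, had the smallest p of the list and was lower with 3-MC. Its levels were 6.82, 6.15 and 6.31 with vehicle, 6.01, 6.32 and 5.99 with 3-MC, 7.07, 7.42 and 7.2 with E2, and 7.01, 6.50 and 7.0 with both. Groups overlapped without estradiol and did not overlap with it. The difference was -0.35 ± 0.13, uncalled at an adjusted p of 0.413 in limma. The exact permutation p, not adjusted for the number of genes, was 0.025 when 3-MC labels were exchanged within each estradiol background. The actin-severing protein gene Scin and the retinol esterifying enzyme gene Lrat, which AhR ligands raise in other tissues, differed by -0.47 ± 0.21 and -0.53 ± 0.24. With estradiol the values were -0.91 and -1.14 and without it -0.04 and 0.08, a difference not called by the limma interaction test (adjusted p = 0.889 and 0.876). The genes of the receptor and its partner differed little. Ahr differed by -0.02 ± 0.07, with levels between 7.62 and 8.10 in all rats, and Arnt by 0.11 ± 0.08. Arnt2, a second partner protein better known from neurons, differed by 0.61 ± 0.21 (adjusted p = 0.413), with 0.27 without and 0.95 with estradiol. Among 17 AhR pathway components measured, Arnt2 and the coactivator gene Ep300 had an unadjusted p under 0.05. Both were higher (11.8%, against 3.91% of all probe sets), and the median was 0.04.

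**Figure D3:**
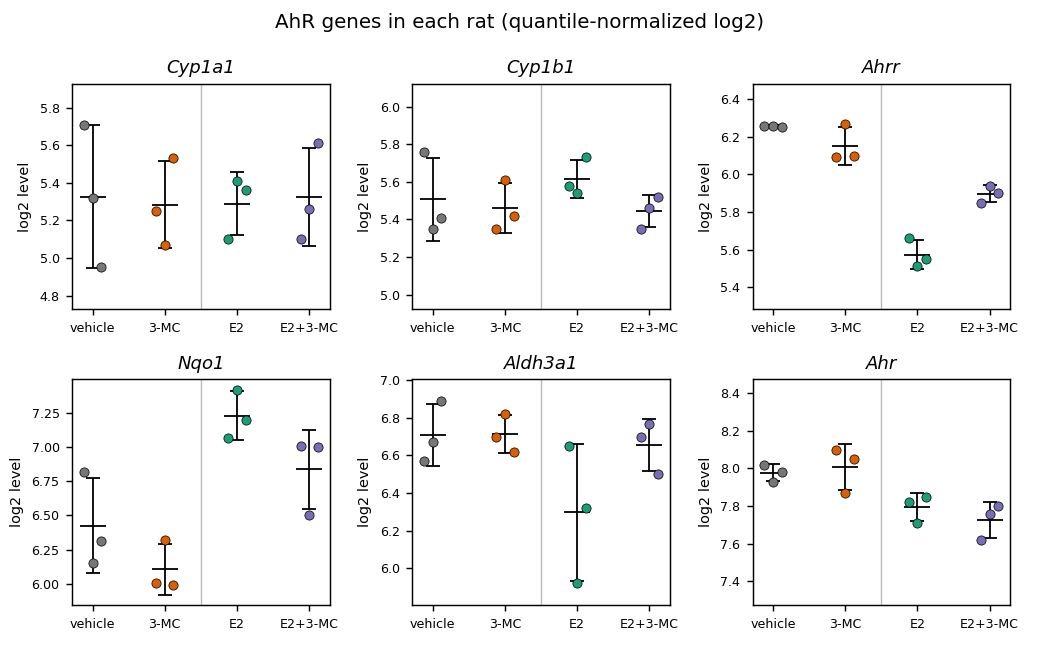
Points are log2 levels of single rats for 6 AhR genes, with groups on the horizontal axis, means as horizontal bars and SD of 3 rats as error bars. Cyp1a1 levels of all groups overlap between 4.95 and 5.71, and Ahrr differs without overlap between E2 and E2+3-MC but not between vehicle and 3-MC.

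The upstream sequence of the leading genes and of a pair of AhR targets was read for the AhR core motif, because that motif is how a ligand-bound receptor reaches a gene. The 250 bases before the start of transcription are shown from RefSeq, assembly GRCr8, all on the plus strand, with GCGTG or its reverse complement CACGC in capitals. Postn lies at chr2:140677811-140678060, Dhcr7 at chr1:208444184-208444433, Ahrr at chr1:30821969-30822218 and Cyp1b1 at chr6:21094315-21094564. An entry for Cyp1a1 was not used here.
Postn: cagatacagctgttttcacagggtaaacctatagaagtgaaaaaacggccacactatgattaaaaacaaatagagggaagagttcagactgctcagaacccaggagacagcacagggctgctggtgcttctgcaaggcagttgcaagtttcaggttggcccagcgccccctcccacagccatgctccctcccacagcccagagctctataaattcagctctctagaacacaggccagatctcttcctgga
Dhcr7: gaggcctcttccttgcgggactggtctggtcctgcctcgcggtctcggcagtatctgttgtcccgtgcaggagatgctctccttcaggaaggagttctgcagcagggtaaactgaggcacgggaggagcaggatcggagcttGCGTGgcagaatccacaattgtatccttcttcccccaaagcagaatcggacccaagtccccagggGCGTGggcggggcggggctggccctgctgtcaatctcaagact
Ahrr: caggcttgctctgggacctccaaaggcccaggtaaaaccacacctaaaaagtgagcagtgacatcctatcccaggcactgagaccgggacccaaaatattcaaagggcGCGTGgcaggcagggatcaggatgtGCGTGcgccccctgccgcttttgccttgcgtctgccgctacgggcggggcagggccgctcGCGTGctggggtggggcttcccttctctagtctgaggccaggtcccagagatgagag
Cyp1b1: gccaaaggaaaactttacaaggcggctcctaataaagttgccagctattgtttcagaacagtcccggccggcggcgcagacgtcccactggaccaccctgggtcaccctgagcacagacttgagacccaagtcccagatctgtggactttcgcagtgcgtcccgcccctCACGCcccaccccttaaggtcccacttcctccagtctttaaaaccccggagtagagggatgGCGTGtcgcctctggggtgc
The Postn window held 0 matches, Dhcr7 held 2, Ahrr 3 and Cyp1b1 2. The longer form TNGCGTG, which contains GCGTG, was found in Dhcr7, Ahrr and Cyp1b1 and not in Postn. Searched on both strands, GCGTG occurred in 25.9% of 33469 promoters of this length and TNGCGTG in 4.09%. GCGTG was in 12 of 20 promoters of the AhR target list, in 8 of 16 of the cholesterol synthesis list and in 4 of 15 of the epithelium list. A match describes letters in the window and no binding was measured.

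Cholesterol synthesis genes stood lowest of the 31 lists. These enzymes turn acetyl units into cholesterol through mevalonate and squalene, and the transcription factor SREBP2 is known to switch them on together. All 19 measured genes were below 0, with a median difference of -0.35, and 12 of them (63.2%) had an unadjusted p under 0.05 in the lower direction, against 6.97% of all probe sets; none was called. The median was -0.16 without estradiol and -0.52 with it. The direction of the list median was the same on the deposited scale, at -0.33 with 5 members past the unadjusted threshold and 15 of 19 below 0, and after median centring, at -0.49 with 12. Leaving out 1 rat at a time gave medians of -0.396 to -0.252, with 9 to 13 members.

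Dhcr7, the reductase of the last step, had levels of 6.95, 6.65 and 6.48 with vehicle and 6.21, 6.11 and 6.14 with 3-MC. With estradiol they were 7.0, 7.15 and 7.38, and with E2+3-MC 6.90, 6.61 and 6.69. No rat with 3-MC reached a rat without it in its background, and the difference was -0.49 ± 0.09 (adjusted p = 0.412 in limma). It was -0.55 without and -0.44 with estradiol. Srebf2, the gene of SREBP2 itself, had levels of 8.19, 8.30 and 8.20 with vehicle, 8.20, 8.02 and 7.99 with 3-MC, 8.76, 8.84 and 9.0 with E2, and 8.50, 7.99 and 8.40 with both. Its groups overlapped without estradiol and not with it, and its difference was -0.36 ± 0.11.

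Along the pathway, the enzymes of the mevalonate branch with an unadjusted p under 0.05 were Mvd at -0.32, Idi1 at -0.39 and Fdps at -0.46. Fdft1, which makes squalene, differed by -0.50 ± 0.15, and Sqle, which oxidizes it, by -0.35 ± 0.16. Of the enzymes from lanosterol onward, Lss differed by -0.28, Cyp51 by -0.41, Msmo1 by -0.53 and Sc5d by -0.47. Insig1, which holds SREBP2 back when sterols are plentiful and is itself one of its targets, differed by -0.52 ± 0.19. The other 7 members, Nsdhl, Hsd17b7, Pmvk, Mvk, Ebp, Stard4 and Tm7sf2, ranged from -0.29 to -0.03 and missed the unadjusted threshold. In value Fdps showed -0.14 without and -0.78 with estradiol, and Cyp51 -0.06 and -0.76; the interaction test called no probe set.

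The mean level of the 19 genes in each rat showed which animals carried the pattern. It was 7.82, 7.41 and 7.44 with vehicle and 7.38, 7.34 and 7.49 with 3-MC, so these overlapped and vehicle rat 1 stood above the rest. With E2 it was 8.35, 8.44 and 8.58, and with E2+3-MC 8.20, 7.68 and 8.07, without overlap and with E2+3-MC rat 2 lowest.

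Epithelium markers had the second lowest median, -0.23, with 20 of 22 measured genes below 0. At an unadjusted p under 0.05, 10 were lower (45.5%, against 6.97% of all probe sets) and 0 higher (3.91%), and none was called. In whole uterus, fewer cells of a type and less RNA per cell cannot be told apart. The direction was the same on the deposited scale, at -0.26 with 1 member past the threshold, and after median centring, at -0.42 with 15. Of all 15310 probe sets, 67 were lower on the deposited scale and 1350 after median centring. Esrp1, the epithelial splicing regulator, had levels of 8.15, 8.11 and 8.11 with vehicle and 7.97, 7.76 and 7.88 with 3-MC. With E2 they were 8.83, 8.83 and 8.96, and with E2+3-MC 8.54, 8.59 and 8.61. Its groups did not overlap in either background and the difference was -0.27 ± 0.06.

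The tight junction genes Cldn4, Cldn3 and Cldn7 differed by -0.38, -0.30 and -0.26. The epithelial transcription factor genes Elf3, Ehf and Grhl2 differed by -0.38, -0.20 and -0.22. Lamb3, a chain of the basement membrane laminin-332, differed by -0.58 ± 0.21, the integrin gene Itgb6 by -0.43 ± 0.15 and the apical membrane gene Prom1 by -0.43 ± 0.15. The keratin genes Krt8, Krt18, Krt19 and Krt7 ranged from -0.43 to -0.18 and did not pass even the unadjusted threshold, and Epcam and Cdh1 had -0.07 and -0.24. The exceptions above 0 were Klf5 at 0.35 ± 0.27 and Cdh16 at 0.08 ± 0.14. The list mean was 8.46, 8.10 and 8.19 with vehicle and 8.23, 8.09 and 8.13 with 3-MC, which overlapped. It was 9.36, 9.28 and 9.27 with E2 and 9.02, 8.74 and 9.14 with both, which did not. E2+3-MC rat 2 was lowest of its group here as in the cholesterol list, and the part of epithelial content in the cholesterol synthesis values was not tested.

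**Figure D4:**
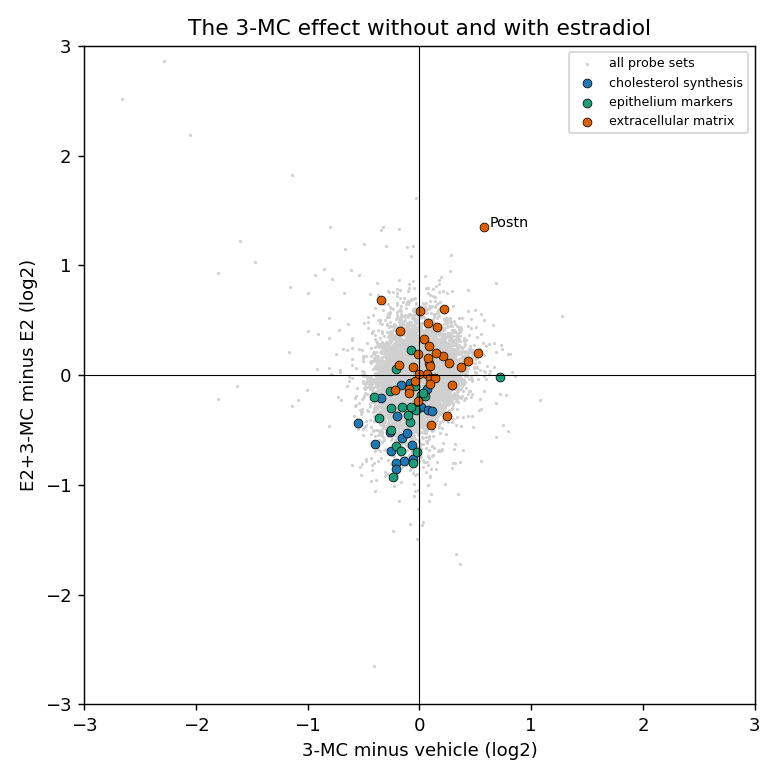
Each point is a probe set, with its log2 difference between 3-MC and vehicle rats on the horizontal axis and between E2+3-MC and E2 rats on the vertical axis; no array is shared by the axes. Cholesterol synthesis genes (blue) lie mostly below and left of 0, epithelium markers (green) mostly below 0, and Postn at 0.58 and 1.35 lies apart at the upper right.

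The extracellular matrix list was the counterpart on the higher side by count. Of 34 genes measured, 6 had an unadjusted p under 0.05 and were higher (17.6%, against 3.91% of all probe sets), 0 were lower, and 26 lay above 0. The count was 3 without E2 rat 2 or E2+3-MC rat 1 and 2 without E2+3-MC rat 2. Over all probe sets the higher count was 434, 456 and 462 in these fits, against 598 with all rats. For the matrix list other scales also mattered. The median of 0.10 turned to -0.09 after median centring, with 1 member higher and 1 lower, and was 0.07 on the deposited scale. After median centring 214 of all 15310 probe sets were higher and 1350 lower. Besides Postn, the higher members past the threshold were Lum, Mmp2, Col14a1, Eln and Col3a1. Lum, the collagen-binding proteoglycan lumican, differed by 0.41 ± 0.16 and the gelatinase gene Mmp2 by 0.28 ± 0.11. The fibril-associated collagen gene Col14a1 differed by 0.30 ± 0.12, the elastin gene Eln by 0.28 ± 0.11 and Col3a1, a fibrillar collagen, by 0.19 ± 0.08. The fibronectin gene Fn1 differed by 0.00 ± 0.09. Stroma markers share Lum, Dcn and Col1a1 with the matrix list and Wt1 with the mesothelium list. They held 4 higher (22.2%) and 1 lower (5.56%) of 18 at the unadjusted threshold, against 3.91% and 6.97% of all probe sets. The higher count was 7 without vehicle rat 1 and 2 without E2 rat 2, E2+3-MC rat 1 or E2+3-MC rat 2. Igfbp5, a binding protein of insulin-like growth factors, differed by 0.33 ± 0.09, and Hoxa11 was the lower one at -0.32 ± 0.13. Their median of 0.07 also turned to -0.07 after median centring, where 0 members were higher and 1 lower, and on the deposited scale 0 were higher and 0 lower. Summed stroma intensity was 17310 to 21180 with vehicle, 18520 to 20380 with 3-MC, 14970 to 17680 with E2 and 17210 to 20220 with E2+3-MC, and its part in the matrix values was not tested.

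Markers of mesothelium, the cell layer that covers the uterus, had the highest median, 0.23, and kept its sign on the deposited scale (0.31) and after median centring (0.14). Of 12 genes listed 8 were measured, 3 of the 8 dim. Unadjusted p was under 0.05 for 3 higher genes (37.5%, against 3.91% of all probe sets) and 0 lower ones (6.97%), and none was called. Of the higher genes, Wt1 is also counted among the higher stroma markers. Wt1, a transcription factor of mesothelium that stroma also expresses, had levels of 9.62, 9.85 and 9.86 with vehicle and 9.98, 9.98 and 9.87 with 3-MC. It had 8.77, 8.58 and 8.66 with E2 and 9.01, 9.16 and 8.96 with E2+3-MC, so the rats with 3-MC were higher in both backgrounds, by 0.27 ± 0.08. Msln, the surface protein mesothelin, differed by 0.49 ± 0.17 and the membrane glycoprotein gene Gpm6a by 0.45 ± 0.13, each with no overlap with estradiol and overlap without. Summed intensity of the list was 2067 to 2350 with vehicle, 2212 to 2430 with 3-MC, 1102 to 1183 with E2 and 1470 to 1591 with both.

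Genes of defence against oxidants and damaged proteins are given beside the shares of all probe sets, 6.97% lower and 3.91% higher. Of 31 NRF2 and glutathione genes, 7 were lower at an unadjusted p under 0.05 (22.6%) and 1 higher, with a median of -0.13. The lower ones were Gpx2, Nqo1, Slc7a11, Taldo1, Gclc, Gclm and Gss, which include the cystine carrier and the enzymes of glutathione synthesis. The lower count was 4 without E2 rat 1, E2 rat 2 or E2+3-MC rat 2. Over all probe sets it was 998, 768 and 785 in these fits, against 1067 with all rats. Gpx2, the epithelial glutathione peroxidase, had levels of 8.80, 8.71 and 9.03 with vehicle, 8.58, 8.58 and 8.31 with 3-MC, 11.79, 11.50 and 11.73 with E2, and 11.44, 10.63 and 11.37 with both. It did not overlap in either background and differed by -0.44 ± 0.13. The higher one was the glutathione transferase gene Gsta4 at 0.29 ± 0.10. Hmox1, the heme oxygenase induced by oxidative stress, differed by -0.10 ± 0.14. Of 32 heat shock and ER folding genes 8 were lower (25.0%) and 0 higher, with a median of -0.12. Without 1 rat the count of lower genes was 5 to 13: 13 without E2+3-MC rat 3, and 5 without vehicle rat 1, E2 rat 1, E2 rat 3, 3-MC rat 2, E2+3-MC rat 1 or E2+3-MC rat 2. Over all probe sets the lower count was 1222 without E2+3-MC rat 3 and 686 to 998 without 1 of the other rats named. Of the lower list members, the chaperone genes Dnajb1 and Hspb1 differed by -0.35 ± 0.11 and -0.44 ± 0.14 and the ER gene Sdf2l1 by -0.41 ± 0.12. Both medians were also below 0 on the deposited scale, at -0.14 and -0.17, where 1 and 0 members were lower at the unadjusted threshold.

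Of 26 immediate early genes, which answer growth and stress signals within minutes, 6 were lower (23.1%, against 6.97% of all probe sets) and 0 higher (3.91%) at an unadjusted p under 0.05. The AP-1 component genes Junb and Fosl2 differed by -0.30 ± 0.10 and -0.18 ± 0.07, Ier2 by -0.32 ± 0.12, and Egr1 by -0.38 ± 0.15. On the deposited scale 1 was higher and 0 lower. The p53 list, which a DNA-damaging hydrocarbon can engage, had 3 higher and 3 lower of 24, 12.5% each against 3.91% and 6.97%. After median centring 0 were higher, and on the deposited scale 1 was lower. Of all 15310 probe sets, 214 were higher after median centring and 67 lower on the deposited scale. Of the p53 list, 1 was higher without E2 rat 3, where all probe sets had 409 higher. Without vehicle rat 2 or 3-MC rat 2, 6 or 5 of the list were lower, where all probe sets had 1459 or 899. Cdkn1a, the cell cycle inhibitor p21 and a main p53 target, differed by -0.52 ± 0.18 and the apoptosis gene Bax by -0.27 ± 0.09, while the damage kinase gene Atm differed by 0.21 ± 0.08. The other probe set of Bax differed by -0.04.

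Clock genes had members in both directions. Of 16 measured, 3 were higher and 3 lower at an unadjusted p under 0.05, 18.8% each against 3.91% and 6.97% of all probe sets. The counts were 1 and 1 on the deposited scale and 1 higher and 3 lower after median centring. All probe sets had 1553 higher and 67 lower on the deposited scale, and 214 and 1350 after median centring. Cry1, a repressor of the clock, had levels of 7.33, 6.85 and 6.91 with vehicle and 6.63, 6.80 and 6.36 with 3-MC. It had 6.91, 7.0 and 7.13 with E2 and 6.38, 6.20 and 6.87 with E2+3-MC, with no overlap in either background and a difference of -0.48 ± 0.12 (adjusted p = 0.412). Bhlhe40 and Nfil3, also repressors, differed by -0.39 ± 0.14 and -0.32 ± 0.14. The Rev-erb nuclear receptor genes Nr1d1 and Nr1d2, repressors as well, differed by 0.41 ± 0.16 and 0.36 ± 0.12 and the period gene Per3 by 0.51 ± 0.17. With estradiol these 3 had 0.75, 0.62 and 0.83 and without it 0.08, 0.10 and 0.18, a difference that the interaction test called for no gene (smallest adjusted p over all probe sets 0.553 in limma). The hour at which each uterus was taken is not in the labels, and its part was not tested.

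DNA replication genes had 4 higher of 26 (15.4%, against 3.91% of all probe sets) and 0 lower (6.97%) at an unadjusted p under 0.05. None was called. Among the higher ones were the cyclin E genes Ccne1 (dim) and Ccne2 at 0.42 ± 0.17 and 0.26 ± 0.11. Another was the polymerase clamp gene Pcna at 0.22 ± 0.10. The count was 0 without E2 rat 3 or E2+3-MC rat 1, 1 without E2 rat 2, and 2 without vehicle rat 3 or any 1 rat of the 3-MC group. Over all probe sets the higher count was 409 without E2 rat 3, 456 without E2+3-MC rat 1 and 434 without E2 rat 2. It was 598 with all rats. The list median of 0.10 became -0.01 without E2+3-MC rat 1. Of 25 mitosis genes, 23 lay above 0 and 0 passed the unadjusted threshold, and the median of 0.11 became -0.03 without that rat. On the deposited scale 5 were higher and all 25 lay above 0, with a median of 0.31 beside 0.088 over all probe sets. There 1553 of all 15310 probe sets were higher. The mean mitosis level of E2+3-MC rat 1 was 7.63, against 5.88 to 6.83 in the other 11 rats.

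Known estradiol responses differed in value by background. C3, the complement gene that estradiol induces in uterine epithelium, had levels of 6.35, 5.47 and 5.72 with vehicle and 6.51, 6.72 and 7.56 with 3-MC, without overlap. With estradiol it had 12.59, 12.43 and 12.34, and with both 12.21, 12.01 and 12.47. The differences of 1.08 ± 0.26 and -0.22 ± 0.26 averaged to 0.43 ± 0.25, and the difference between them was not called (adjusted p = 0.876 in the limma interaction test). S100g, the calcium carrier calbindin-D9k, had 0.82 ± 0.20 without and 0.03 ± 0.20 with estradiol. Esr1, Pgr, Igf1 and Clu differed by 0.10, 0.10, -0.08 and 0.14, each within 2 SE. Of 28 estrogen-induced genes, 1 was higher (3.57%) and 3 lower (10.7%) at an unadjusted p under 0.05, against 3.91% and 6.97% of all probe sets. The lower count was 6 without vehicle rat 2, 5 without E2+3-MC rat 3, and 2 without E2 rat 3 or E2+3-MC rat 2; the higher count was 0 without vehicle rat 1, vehicle rat 3, 3-MC rat 2 or 3-MC rat 3 and 2 without E2+3-MC rat 2. On the deposited scale 1 was higher and 1 lower. Ckb, the brain-type creatine kinase and a classic uterine estrogen-induced protein, was among the lower ones at -0.54 ± 0.15, with no overlap in either background.

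The other cell types are given by the same counts, which depend on the scale. Of all probe sets, 3.91% were higher and 6.97% lower. The lower shares were 4.76% for myometrium, 10.5% for endothelium and 5.26% for macrophages, and no list member was called. At an unadjusted p under 0.05, the myometrium list had 0 higher and 1 lower of 21, the endothelium list 0 and 2 of 19, macrophages 0 and 1 of 19, lymphocytes 0 and 0 of 19, and blood 0 and 0 of 8. After median centring, 9 myometrium markers were lower, all 21 lay below 0 and the median was -0.25. On that scale 4 endothelium markers were lower, with 18 of 19 below 0. Of all 15310 probe sets, 1350 were then lower and 214 higher, and their median was -0.075. On the deposited scale the myometrium and endothelium lists had 0 higher and 0 lower. Lymphocyte markers had 3 higher there, where all probe sets had 1553 higher and 67 lower. Plvap and Flt1 were the endothelial ones, at -0.36 ± 0.11 and -0.23 ± 0.08, and the costimulatory gene Cd86 the macrophage one, at -0.49 ± 0.17. Of 29 interferon response genes 2 were higher (6.9%) and 1 lower (3.45%), and 0 were higher under either other scaling. The GTPase gene Gbp2 differed by 0.25 ± 0.08 and did not overlap in either background. After quantile normalization, chemokines and cytokines had 0 higher and 2 lower (5.13%) of 39. Granulocyte and mast cell markers had 0 and 1 (4.17%) of 24. Wnt, Hedgehog and BMP genes had 3 (8.33%) and 2 (5.56%) of 36. Il1a (dim), Cxcl14 and S100a8 differed by -0.76 ± 0.34, -0.60 ± 0.25 and -0.68 ± 0.35. Bmp4 differed by 0.69 ± 0.25, and none of these was called. Adipocyte markers had a median of 0.03, with -0.78 without and 0.73 with estradiol. Single rats set its sign and size: it was 0.21 without vehicle rat 1 and -0.35 without E2+3-MC rat 2, and also below 0 without vehicle rat 2, 3-MC rat 3, E2+3-MC rat 1 or any 1 rat of the E2 group. The adipokine gene Adipoq ranged from 5.80 in 3-MC rat 1 to 11.15 in E2+3-MC rat 3 and differed by -1.01 ± 0.56, so its difference was under 2 SE.

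**Figure D5:**
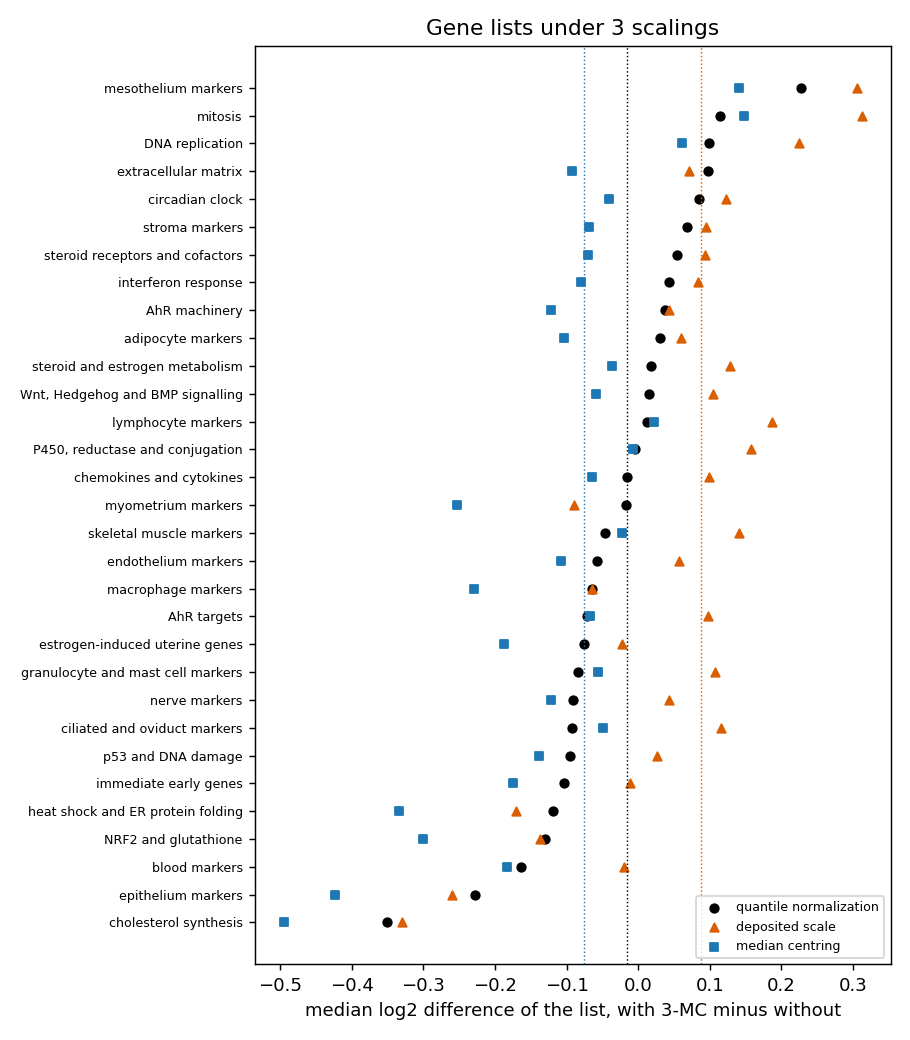
Each row is a gene list, with the median log2 difference of its members on the horizontal axis after quantile normalization (black), on the deposited scale (orange) and after median centring (blue); dotted lines are the medians of all probe sets. Cholesterol synthesis (-0.35) and epithelium (-0.23) lie farthest to the left and mesothelium (0.23) farthest to the right in black, while extracellular matrix and stroma lie on either side of 0 depending on the scale.

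The main effect is an average of a pair of comparisons that share no array. Across the 15310 probe sets, which are not independent replicates, the effects without and with estradiol correlated with a Pearson r of 0.108 and a Spearman rank correlation of 0.193, and 57.5% had the same sign. The median size was 0.103 without and 0.123 with estradiol. 3-MC minus vehicle had 0 probe sets called by limma (smallest adjusted p 0.901, with 694 at an unadjusted p under 0.05). E2+3-MC minus E2 had 2 (0.0131%), Postn and the co-chaperone gene Dnajc14, with 1727 at an unadjusted p under 0.05. Without E2+3-MC rat 3 the number called rose from 2 to 233, and without E2+3-MC rat 2 it was 0.

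Dnajc14 had levels of 7.58, 7.59 and 7.87 with vehicle and 7.63, 8.02 and 7.69 with 3-MC, which overlapped. It had 8.19, 8.65 and 8.37 with E2 and 7.13, 7.42 and 7.41 with E2+3-MC, which did not, and fell by 1.08 there (adjusted p = 0.0394). The interaction test called 0 probe sets, with 831 at an unadjusted p under 0.05 and a smallest adjusted p of 0.553. The 3 with the smallest p were Ctnnd2, a dim catenin gene of cell junctions, at -0.20 without and 0.72 with estradiol, Dnajc14 at 0.10 and -1.08, and the zinc finger gene Zbed4 at 0.21 and -0.42. For these genes the main effects of 0.26, -0.49 and -0.10 are averages of opposite signs.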

How the data were processed

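Biotinylated cRNA made from total RNA of each uterus was run on 1 Affymetrix array, as the labels' protocols state. The deposited values hold linear intensities per probe set, made with Affymetrix Expression Console and PLIER per the submitters' processing notes. The sources used here name no versions, settings, genome build or between-array normalization. Gene names came from the platform annotation: of 29214 probe sets, 15310 had 1 symbol (14506 genes), 323 several and 13581 none, and the last 2 kinds were left out of the gene tests. By gene ID, 15279 matched RefSeq (GRCr8).

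From the deposited intensities, log2(intensity + 16) was computed here and quantile-normalized over the arrays. R 4.3.3 and limma 3.58.1 (lmFit, eBayes) fitted 1 term for 3-MC and 1 for estradiol on all 12 arrays, with 9 residual and 5.11 prior degrees of freedom. Effects in each estradiol background and the interaction came from 1 mean per group (8 residual degrees of freedom). All tests were two-sided, and limma p of the gene tests had Benjamini-Hochberg adjustment over all 15310 probe sets. Single named genes were also tested by exact permutation within estradiol backgrounds, with unadjusted p that cannot fall below 0.005. Replicates are separate rats per the labels. The fitting steps were tested on simulated data.

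Genes were selected as a fixed AhR and estrogen panel and the 12 smallest p in each direction. To these were added 3 members of each of 31 gene lists and the 3 smallest interaction p. Not every gene selected in this way is described in the text. Tiparp and Ugt1a6 of the panel have no value here. Other members of the lists, Slpi-ps1 and the muscle genes were named after their values were seen. The contrast and lists were chosen with earlier results of these data known, so list counts are descriptions and no list was tested. For the 18 same-numbered pairs of rats from different groups, deviations correlated between -0.201 and 0.211 (-0.323 to 0.307 for other numbers), so rat numbers were not used as a block. Promoters were matched by symbol; 90 of 125 named genes had an entry. The number of arrays limits the precision. Alternatives were the deposited scale, median centring, other offsets, filters, models and leaving out each rat.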

Additional observations from a re-analysis of the deposited data

How the results depend on the processing

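No probe set was called in the main effect under any of the scalings, offsets, filters or left-out rats tried (0 to 0 without 1 rat). With 1 mean per group, 1 was called, Postn, higher with 3-MC; with trend and robust options in addition, chosen after seeing the data, it was again 1. Postn kept its sign at 0.77 to 1.06 over all alternatives, with adjusted p of 0.00252 to 0.689. With the replicate block, 0 were called (smallest adjusted p 0.411), and the rat numbers did not pair the samples. E2+3-MC minus E2 called 0 on the deposited scale and 1 each after median centring, with an offset of 1 and with quantile normalization over named probe sets; without 1 rat it called 0 to 233. 3-MC minus vehicle called 0 to 1 without 1 rat (1 without vehicle rat 2), and the interaction 0 to 3 (3 without E2+3-MC rat 3). On the deposited scale the sign turned for Cyp1b1 (0.0744), Pgr (-0.0105), Hsd17b7 (0.0552), Ifit1 (0.0356) and Klrd1 (0.0203). After median centring it turned for Arnt (-0.0678), Esr1 (-0.163), Pgr (-0.174), Clu (-0.066), Ep300 (-0.0775), Crebbp (-0.0338), Ncor1 (-0.0551), Ncoa2 (-0.0327) and Mylk (-0.0897). The mitosis median ranged from -0.0304 (without E2+3-MC rat 1) to 0.194. For these reversals the cause was not tested. Dim AhR targets and 3 rats per group limit what the arrays can show.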

Other observations

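The 13904 probe sets with several symbols or no listed gene were tested in the same limma model. None was called (0, with 1235 or 8.88% at an unadjusted p under 0.05), and the smallest adjusted p was 0.117.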
